A study of Danio rerio with 4 samples.

Results

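The table deposited for this zebrafish study lists 19924 rows, of which 2314 are transcript models that were assembled from the reads and carry an MSTRG number in place of an Ensembl gene. The loci described here are those with several such models. A row was taken when its identifier began with MSTRG and its locus, the identifier without the last dot and number, had 2 or more rows. This gave 499 models at 204 of the 2019 assembled loci, or 2.50% of all rows. There were 164 loci with 2 models, 25 with 3, 9 with 4 and 6 with 5 or more, and the most at 1 locus was 22. For each library the counts of a locus were summed, and each model was expressed as its share of that sum, in percent.

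A gene can give several transcripts that differ in where they start, which exons they join and where they end. An assembler joins overlapping spliced reads into models of such transcripts, and near-identical neighbouring genes or repeated elements can also be collected in 1 locus. A share and a locus sum answer different questions, because models can replace one another while the output of the locus stays level.

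The study asked what loss of cpa1 and cpa5 does in the zebrafish. Both encode carboxypeptidases of the A type, enzymes that remove residues from the carboxyl end of proteins, and CPA1 is a digestive enzyme of the exocrine pancreas. All embryos came from 1 pair of cpa1+/-cpa5+/- parents and were taken at 3 days post fertilisation. Heads were used for genotyping, and RNA was extracted with TRIzol from the tails. The 2 double knockout libraries and the 2 sibling libraries carry the replicate numbers 3 and 4 in each group. The genotype field of the siblings reads WT, while their titles call them siblings, and whether any was heterozygous is not given. Each library was made with a kit for mRNA from 500 ng of total RNA. The number of fish per library is not given, so every p-value below measures only the spread between libraries, which may be technical.

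The libraries held 25623442 (sibling 3), 32248878 (sibling 4), 24769258 (knockout 3) and 35343524 (knockout 4) counts, of which the multi-model loci took 0.541 to 0.693%. The cpa5 counts were 2079 in sibling 3, 397 in sibling 4, 19 in knockout 3 and 15 in knockout 4, so both knockouts lay below both siblings, although the siblings differed widely from each other. cpa1 is not analysed here. Levels are given as CPM, which are counts scaled to the library total after its multiplication by edgeR's TMM normalisation factor. These factors lay between 0.976 and 1.047. All 8 markers of the tail end of the body were measured, at a summed 72.7 to 90.5 CPM. Of 16 forebrain and eye markers 3 were measured, at 8.15 to 10.3 CPM. The libraries also differed by replicate number: 5 measured markers of cardiomyocytes summed to 5.73 and 2.198 CPM in sibling 3 and knockout 3 but to 64.9 and 67.0 CPM in sibling 4 and knockout 4. The 11 exocrine pancreas markers summed to 1091 and 397 CPM in sibling 3 and knockout 3 and to 120 and 92.6 CPM in sibling 4 and knockout 4, so they were also lower in the knockout within each number. Markers of hepatocytes summed to 6847 CPM in sibling 3 against 4065 in knockout 3, and to 10093 CPM in sibling 4 against 7161 in knockout 4. Epidermal markers were lower in both knockouts as well, at 15809 against 11997.5 CPM in the libraries numbered 3 and 22973 against 19961 CPM in those numbered 4. Erythrocyte markers stood at 286 CPM in knockout 3 and at 753 to 897 CPM elsewhere. Higher in the knockout within each number were the markers of the tail end, at 76.6 against 90.5 CPM and 72.7 against 85.3 CPM. So were those of neurons, at 345 against 412 CPM and 390.2 against 425 CPM. Those of skeletal muscle were nearly level in the libraries numbered 3, at 57446 against 57938 CPM, and higher in knockout 4, at 60995 against 64232 CPM. The part of these marker levels in the genotype results below was not tested. In such bulk samples fewer cells of a type and less RNA per cell cannot be told apart.

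The median locus had a mean sum of 389 counts per library, and 196 of the 204 loci had at least 50 counts in every library. No listed model had a highest count under 34, so rarer models of a locus do not enter its shares. At 154 loci all models had the same protein match in the deposited annotation, and at 160 loci an Ensembl gene with the same match was listed as well. The counts of such an Ensembl row are not part of the shares or the locus sum. A share therefore describes the assembled models only and not the whole output of a gene. How reads that overlap several models, or a model and an Ensembl gene, were assigned is a point on which the labels and headers are silent, so counts within a locus are uncertain. The ratio of count to FPKM, a unit scaled by transcript length, gives the relative length of the models of a locus. The shortest model was at the median 0.843 of the length of the longest, and 117 loci had a ratio above 0.8.

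At most loci the leading model did not change between libraries. The model with the highest share was the same in all 4 libraries at 112 loci, and the largest difference in share between any 2 libraries was under 20 percentage points at 100 loci. It was 50 points or more at 51 loci, with a median of 21.6 points over the 204. Changes of the leading model took several forms. The leading model differed between the genotypes at 7 loci, between the replicate numbers at 16, and in a single library at 49, namely 10 in knockout 3, 13 in knockout 4, 13 in sibling 3 and 13 in sibling 4. At 13 further loci sibling 3 shared its leading model with knockout 4, and sibling 4 with knockout 3. The remaining 7 loci had 3 or 4 different leading models.

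The comparison of double knockouts with siblings asked whether a model changed relative to the rest of its locus. In edgeR's usage test, 8 of 499 models and 5 of 204 loci passed at an adjusted p below 0.05, which is 1.6% of the models and 2.45% of the loci. At an unadjusted p below 0.05 edgeR listed 16 models (3.21%) and 11 loci (5.39%). The 5 loci that passed after adjustment encode or match pellino 1b, dmrt2a, an EH domain-binding protein 1-like 1, a VPS13C-like lipid transfer protein and an uncharacterized protein with a retroviral envelope domain. With limma 15 models (3.01%) at 8 loci (3.92%) passed, and with DESeq2 22 models (4.41%) at 12 loci (5.88%). At a locus with 2 models, limma and DESeq2 give both models the same p, so a change there is counted for both. The counts of loci are free of this. The 5 loci of edgeR were all among limma's 8, and those were all among DESeq2's 12. Leaving out any 1 of the 4 libraries, siblings and knockouts alike, ended all 5 locus calls of edgeR. The smallest adjusted p among loci was then 0.13 without sibling 3, 0.143 without sibling 4, 0.062 without knockout 3 and 0.0945 without knockout 4, each with 1 residual degree of freedom and with the lone library of a group taken to vary like the other group. The share difference went from 97.6 to between 97.3 and 97.9 points for the shorter dmrt2a model. For the shorter pellino 1b model it went from 89.0 to between 88.4 and 89.6 points. Both siblings held only the longer model at these loci, so leaving out a sibling could not change the difference, and these values are no check on the calls. For the called model of MSTRG.31834 the difference went from -20.3 points to between -16.1 and -24.5 points.

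The transcription factor dmrt2a, which acts in the symmetric formation of somites and in muscle development in zebrafish, had 2 models at MSTRG.37962, the shorter 0.882 of the length of the longer. The longer model held 100% of the locus in both siblings, 2.05% in knockout 3 and 2.71% in knockout 4. None of the 298 and 386 sibling counts fell on the shorter model, which allows a share of up to 1.01% in sibling 3 and 0.777% in sibling 4. Both siblings and both knockouts were thus nearly pure for opposite models, and the groups did not overlap (locus adjusted p = 0.0045, edgeR usage test). The locus itself stood at 11.6, 12.2, 13.2 and 12.8 CPM in siblings 3 and 4 and knockouts 3 and 4, a log2 fold change of 0.12 ± 0.18 (SE).

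The pellino 1b locus, MSTRG.33924, had models of nearly equal length, at a ratio of 0.948. An Ensembl row with the same match, peli1b, was listed apart from them and is not part of the shares. Pellino proteins are E3 ubiquitin ligases known in mammals from signalling by Toll-like and interleukin-1 receptors. The longer model had a share of 100% in both siblings, 11.6% in knockout 3 and 10.4% in knockout 4, a mean difference of -89.0 points. The siblings lay far above the knockouts, with a spread of 0.911 points (SD, n = 2) between the knockouts. The locus adjusted p was 0.0045 in edgeR and 0.000528 in limma, and the locus sum differed by a log2 fold change of 0.04 ± 0.18 (SE).

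At MSTRG.35569, matched to glypican-5b, a heparan sulphate proteoglycan of the cell surface, the assembled models exchanged completely. An Ensembl row with the same match, gpc5b, was listed as well, and its counts are not part of these shares. The longer model took all 132 and 227 counts of siblings 3 and 4 and none of the 97 and 268 counts of knockouts 3 and 4, and the shorter model the reverse. The limit that 0 counts allow was highest in knockout 3, at 3.09%. Only 1 of the models was matched to glypican-5b, the other having no match. Their lengths stood at a ratio of 0.982, but each was taken from different libraries, so which model is longer is uncertain. The locus passed in limma (adjusted p = 0.00262) and DESeq2 (adjusted p = 0.000106) but not in edgeR (adjusted p = 0.0588).

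**Figure D1:**
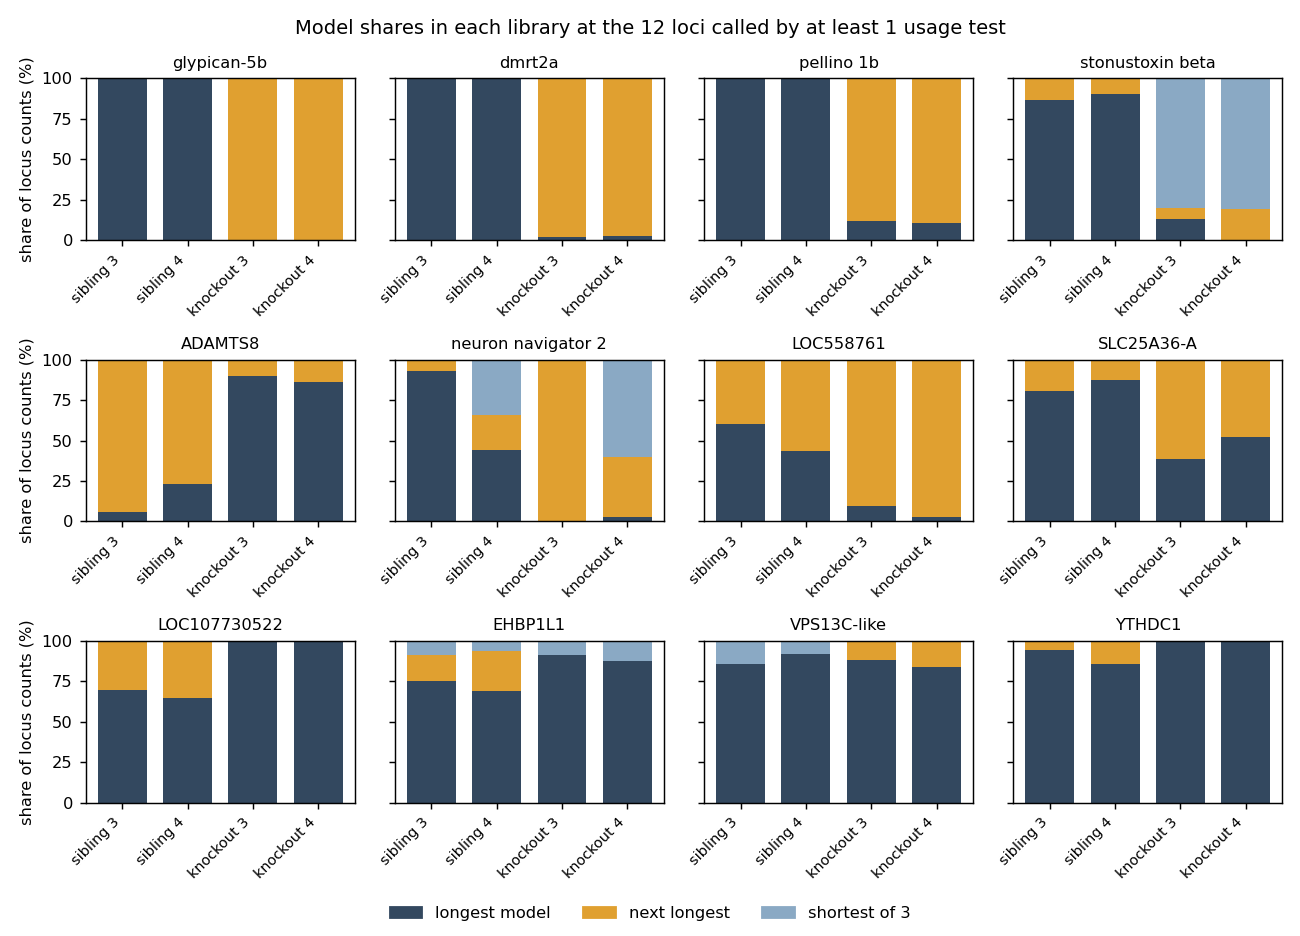
Stacked bars give the share of each model in the locus counts, in percent, for each of the 4 libraries at the 12 loci called by edgeR, limma or DESeq2. At glypican-5b, dmrt2a and pellino 1b the model estimated as longest holds 100% in both siblings and 11.6% or less in both knockouts. At YTHDC1 and the VPS13C-like locus the leading model is the same in all 4 libraries.

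Other called loci differed in a minor model. At MSTRG.31834, which matches an EH domain-binding protein 1-like 1, a protein known in mammals from membrane traffic, a model of relative length 0.71 had 81 and 150 counts in siblings 3 and 4 and none in either knockout. Its share was 16.1% and 24.5% in the siblings, and 0 counts allow up to 0.529% and 0.467% in the knockouts (adjusted p = 0.0055 for the model, edgeR usage test). The leading model of this locus stood at 75.3% and 69.3% in the siblings and at 91.2% and 87.5% in the knockouts, and by itself it did not pass in edgeR (adjusted p = 0.999).

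MSTRG.32345 was the most abundant of the called loci, with sums of 4532, 3583, 2840 and 3278 in siblings 3 and 4 and knockouts 3 and 4. Its shorter model, annotated with an envelope polyprotein domain of the kind that endogenous retroviruses carry, had 1383 and 1270 counts in the siblings and 0 in both knockouts. Its share was thus 30.5% and 35.4% in the siblings, and 0 counts allow up to 0.106% and 0.0915% in the knockouts. The longer model had 3149 and 2313 counts in the siblings and 2840 and 3278 in the knockouts, where it overlapped between the groups. The locus passed in edgeR (adjusted p = 0.0045), and its sum had a log2 fold change of -0.51 ± 0.27 (SE) that did not pass (adjusted p = 1, edgeR).

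The VPS13C-like locus MSTRG.33611, named for a protein that moves lipids between organelle membranes, exchanged 1 minor model for another. The model of relative length 0.537 had 52 and 35 counts in siblings 3 and 4 and none in the knockouts. The model of relative length 0.704 had none in the siblings and 38 and 69 in knockouts 3 and 4. Both passed the usage test of edgeR, with adjusted p = 0.022 and 0.0178, while the leading model held 84.0 to 92.1% in every library. Computed from FPKM, which weights short models more, the difference of the first was -18.6 points in place of -10.9 from counts, and that of the second 18.4 in place of 13.8.

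YTHDC1, which in mammals binds methylated adenosines in nuclear RNA and takes part in splicing, had a minor model at MSTRG.38157 with 36 and 94 counts in siblings 3 and 4 and 0 in both knockouts. That is a share of 5.72% and 14.5% in the siblings, and the locus passed in limma (adjusted p = 0.0326) but not in edgeR (adjusted p = 0.0894). The leading model held at least 85.5% of the locus in all 4 libraries.

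At the other called loci, 4 of which passed only in DESeq2, both groups used more than 1 model. At MSTRG.37708, matched to ADAMTS8, a secreted metalloproteinase of the extracellular matrix, the longer model had a share of 5.75% and 23.1% in siblings 3 and 4 and of 89.7% and 86.3% in knockouts 3 and 4. The siblings were low and the knockouts high, without overlap (adjusted p = 0.0262 in limma and 0.209 in edgeR). At MSTRG.34582, matched to the beta subunit of stonustoxin, a pore-forming venom protein of stonefish, a model absent from the siblings held 80.4% and 81.1% in knockouts 3 and 4. Its locus sum, at 1040, 565, 1000 and 423 counts in siblings 3 and 4 and knockouts 3 and 4, was higher in the libraries numbered 3 than in those numbered 4.

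The shorter model of SLC25A36-A at MSTRG.36883, a mitochondrial carrier of pyrimidine nucleotides in mammals, had 19.4% and 12.3% in siblings 3 and 4 and 61.7% and 47.7% in knockouts 3 and 4. The uncharacterized locus MSTRG.8997 had its shorter model at 39.9% and 56.3% in the siblings and at 90.3% and 97.1% in the knockouts, a mean difference of 45.6 points. Both were called only by DESeq2 (adjusted p = 0.00404 and 0.0028). Neuron navigator 2, MSTRG.36743, a cytoskeletal protein of growing neurites, was called by DESeq2 as well (adjusted p = 0.0207). Its longest model stood at 92.9% in sibling 3, 44.0% in sibling 4, 0% in knockout 3 and 2.99% in knockout 4, so the siblings differed from each other by more than sibling 4 did from the knockouts.

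Counted over these 12 loci, 8 had 2 models, 10 had the same match for all models, and the ratio of the shortest to the longest model ran from 0.537 to 0.982. The 95% Wilson interval of a share reached at most 6.33 points to either side. Such intervals and the limits for 0 counts cover counting error only. Over all 499 models, 5 had 0 counts in both knockouts alone and 5 in both siblings alone. By number, 15 had 0 counts in both libraries numbered 3 alone and 6 in both numbered 4 alone. A further 6 had 0 counts in sibling 4 and knockout 3 alone, and 5 in sibling 3 and knockout 4 alone. Zeros in a pair of libraries were thus not particular to the genotype split.

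Tested row by row across the whole table, in place of within a locus, the models gave no call in edgeR, where 0.0% of all rows passed. At an unadjusted p below 0.05, edgeR listed 27 of the 499 models (5.41%) against 0.502% of all rows. The rate over all rows lies far below the 0.05 that this threshold allows, and the rate of the models lies near it. Models of a locus that replace one another are each counted. The row test was not run between the replicate numbers, so these rates have no such yardstick. DESeq2 called 15 models (3.01%) against 0.0954% of all rows, with 6 higher in knockouts (1.2%, against 0.0402%) and 9 lower (1.8%, against 0.0552%), and limma called none. CPM did not overlap between the groups for 62 models that were higher in knockouts (12.4%, against 8.72% of all rows) and 65 that were lower (13.0%, against 9.01%). In the authors' deposited table, 40 of the 499 models (8.02%) are marked as regulated, against 0.532% of all rows. Of these, 18 are marked as up in the authors' deposited table (3.61%, against 0.166%) and 22 as down (4.41%, against 0.366%). These 40 lie at 27 loci in the authors' deposited table, and 8 of those loci hold both an up and a down model. In the authors' deposited table only 15 of these 40 models have an adjusted p below 0.05, among 19 such rows in all. The other marked models do not pass there. Those 15 are not a result apart from the 15 DESeq2 calls above, because the authors also used DESeq2. The smallest adjusted p of DESeq2 is 3.718e-24 in both.

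None of the 204 sums passed in edgeR, where 0.0% of all summed rows did, none passed in limma, and none passed in DESeq2, which called 0.0204% of all summed rows. At an unadjusted p below 0.05 edgeR listed 1 sum of the 204 (0.49%), against 0.392% over all. The median absolute log2 fold change of the sums was 0.11. There were 80 sums higher and 124 lower in knockouts, and the median was -0.03 against -0.01 over all summed rows. In CPM, the sums of the groups did not overlap at 9 loci that were higher in knockouts (4.41%, against 8.6% of all summed rows) and 25 that were lower (12.3%, against 8.93%). Over the 12 called loci the median absolute log2 fold change of the sum was 0.11 and the largest 0.51.

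The sum with the smallest p was that of F-box only protein 31, MSTRG.36615, a substrate receptor of a ubiquitin ligase complex. Its 56, 117, 33 and 49 counts in siblings 3 and 4 and knockouts 3 and 4 put both knockouts below both siblings, with a log2 fold change of -1.13 ± 0.37 (SE; unadjusted p = 0.0328, adjusted p = 1, edgeR). Adhesion G protein-coupled receptor L1, MSTRG.1296, a latrophilin, had 11.3, 18.3, 6.02 and 11.0 CPM in the same order, again lower in both knockouts at -0.80 ± 0.41 (SE). The fatty acid elongase locus MSTRG.40698 had 27.7 and 23.7 CPM in siblings 3 and 4 and 20.5 and 17.6 CPM in knockouts 3 and 4. WNK1, MSTRG.36747, a kinase that regulates ion cotransporters, was at 8.34 and 8.31 CPM in the siblings and 9.45 and 12.6 CPM in the knockouts. None of these sums passed after adjustment in edgeR, where the smallest adjusted p over the 204 was 1.

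**Figure D2:**
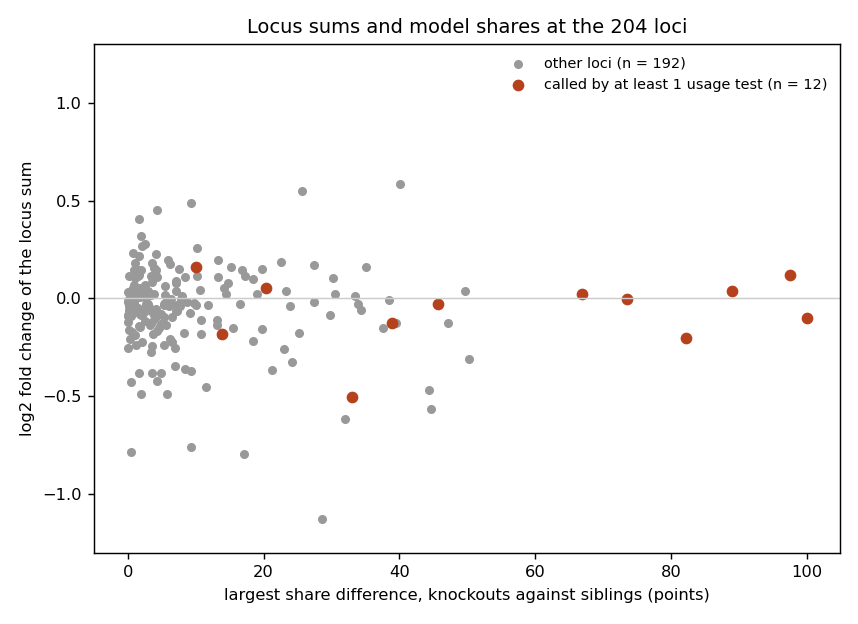
Each point is 1 of the 204 loci, with the largest difference in mean share between knockouts and siblings on the x axis (percentage points) and the log2 fold change of its locus sum on the y axis. The 12 loci called by at least 1 usage test reach 100 points in share but lie within 0.51 of 0 in the log2 fold change of the sum.

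The replicate numbers were compared in the same way with edgeR and limma, as a yardstick for the genotype, by which edgeR called 5 loci and limma 8. DESeq2's usage test was not run between the numbers, so its 12 genotype loci have no such yardstick. With genotype as a term in the fit, edgeR's usage test called 0 of 204 loci between replicates 4 and 3 (0.0%, with 18 loci or 8.82% at an unadjusted p below 0.05) and limma called 12 (5.88%). Without that term, so that the fit had as many residual degrees of freedom as the genotype comparison, edgeR called 12 loci (5.88%) and limma 16 (7.84%). That fit was chosen after the data had been seen. Among the 482 models of loci with at least 50 counts in every library, shares did not overlap between genotypes for 141 (29.3%) and between replicate numbers for 191 (39.6%). With 2 libraries against 2, values in random order do not overlap with a probability of 0.333, and the genotype figure lies below that. The models of a locus with 2 models mirror each other and are both counted. The largest difference in share at a locus had a median of 5.35 points between genotypes and 7.57 points between numbers. At 23 loci a share differed between the genotypes by 20 points or more without overlap, and at 28 loci between the numbers. The cardiomyocyte and exocrine pancreas markers given above moved with the same numbers, and their part in these share differences was not tested.

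**Figure D3:**
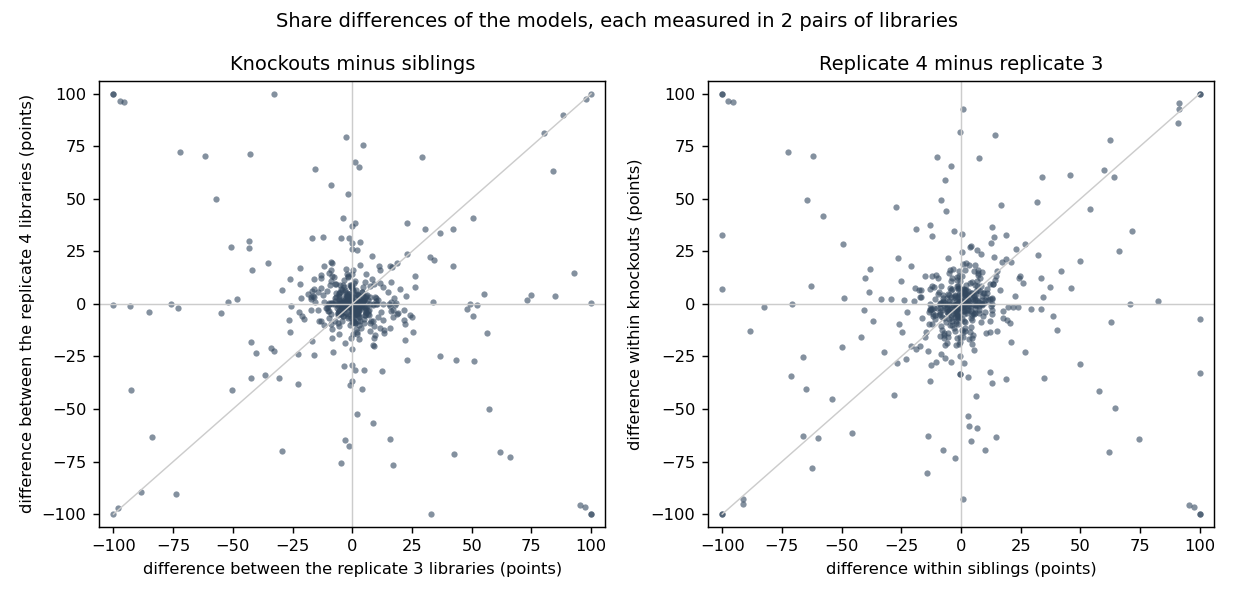
Each point is 1 of the 482 models of loci with at least 50 counts in every library, with share differences in percentage points. The left panel sets knockout minus sibling in the replicate 3 libraries (x) against that in the replicate 4 libraries (y), where 10 models differ by 50 points or more in the same direction in both pairs and 14 in opposite directions. The right panel sets replicate 4 minus replicate 3 in siblings (x) against that in knockouts (y), where 15 models do so in the same direction and 12 in opposite directions.

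TMEM175, a channel of endosomes and lysosomes, exchanged its models completely by number at MSTRG.37917. One model took all 84 and 51 counts of sibling 3 and knockout 3, and the other all 97 and 115 counts of sibling 4 and knockout 4. A gastrula zinc finger locus, MSTRG.15384, did the same, with 118 and 121 counts on one model in the libraries numbered 3 and 169 and 155 on the other in those numbered 4. At both loci the shares were identical within each number, so the genotype difference was 0 points.

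Elongation factor 2a.1, MSTRG.35795, the factor that moves the ribosome along the messenger, used its longer model for 100% of the locus in sibling 3 and knockout 3, 8.72% in sibling 4 and 7.12% in knockout 4. NFE2L1, MSTRG.32456, a membrane-anchored transcription factor known in mammals for induction of proteasome genes, gave 100%, 8.53%, 100% and 4.65% for its longer model in sibling 3, sibling 4, knockout 3 and knockout 4. In both, the numbers were far apart and the genotypes within a number differed by less than 4 points. The uncharacterized locus MSTRG.34705 had its longer model at 78.7% and 78.2% in the libraries numbered 3 and at 16.1% and 0% in those numbered 4. The kinase MAST2, MSTRG.38869, moved by both labels: 1 of its 3 models held 91.3% and 87.4% in the libraries numbered 4, while sibling 3 used another at 97.2% and knockout 3 the third at 77.6%.

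The examples in this paragraph were chosen after their values were seen. The epithelial splicing regulator ESRP2, MSTRG.39114, had a short model of relative length 0.418 with no counts in sibling 3 and knockout 3 and with 218 and 260 counts in sibling 4 and knockout 4. Cyclin-L1a, MSTRG.34524, a cyclin tied to splicing kinases, likewise had its short model at 53.8% and 45.3% in the libraries numbered 4 and at 0% in those numbered 3. Keratin 18b, MSTRG.38573, a filament protein of simple epithelia, differed less: its longer model had 10.3% and 12.8% in the libraries numbered 3 and 37.0% and 41.1% in those numbered 4. These 3 loci passed edgeR's test of the number without a genotype term (adjusted p = 0.00354, 0.00511 and 0.0117). Both the loci and that fit were chosen after values were seen, so these p-values are no independent support. With the planned genotype term edgeR's usage test called 0 of 204 loci by number, and cyclin-L1a had an adjusted p of 0.121.

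Loci that joined sibling 3 with knockout 4 followed neither label, and the following ones were also chosen after their values were seen. The RNA-binding protein hnRNP A0b, MSTRG.33265, was the deepest of them. Its longer model had 97 counts in sibling 3, 2289 in sibling 4, 2203 in knockout 3 and 103 in knockout 4, while its shorter model had 2055, 0, 0 and 2347. The zinc finger protein Rlf, MSTRG.33929, had all 298 and 379 counts of sibling 3 and knockout 4 on one model and all 406 and 313 counts of sibling 4 and knockout 3 on the other. FRMD4B, MSTRG.38614, had its shorter model at 97.4% in sibling 3, 0% in sibling 4 and knockout 3, and 96.5% in knockout 4. SRPK1a, MSTRG.39525, a kinase of splicing factors, had 1 of its 3 models at 72.3% in sibling 3 and 72.2% in knockout 4 and at 0% in the other libraries. At these 4 loci the means of the genotypes differed by 3.41 points or less, although single libraries differed by up to 100 points.

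**Figure D4:**
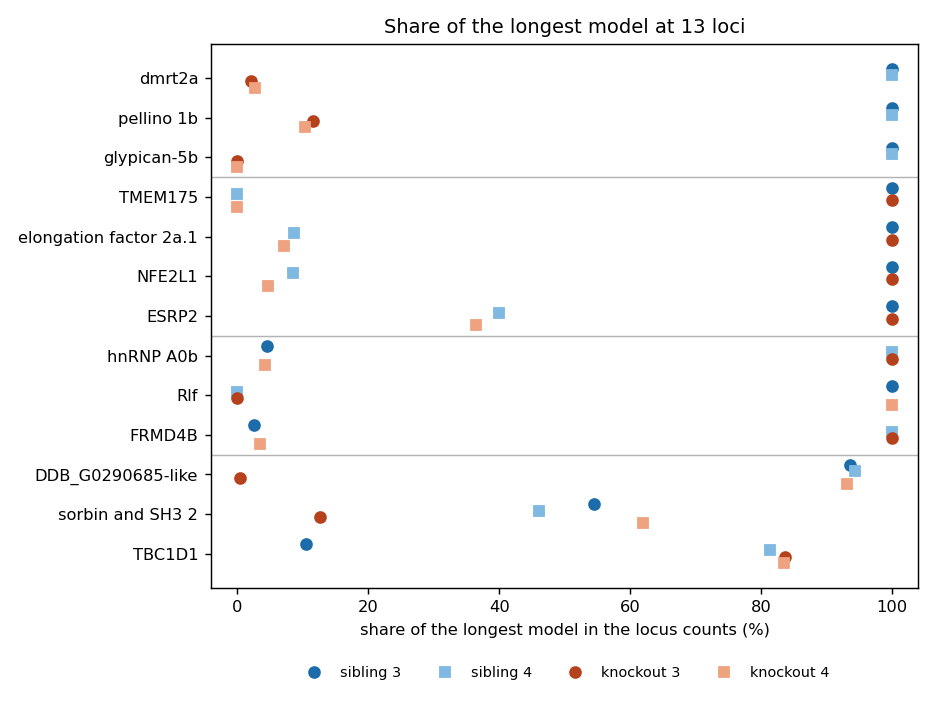
Each row gives the share of the model estimated as longest at 1 locus, in percent, in each library. Siblings are in blue, knockouts in orange, replicate 3 as circles and replicate 4 as squares. The lines separate loci that split by genotype, by replicate number, by neither (sibling 3 with knockout 4) and by a single library. In the upper 3 groups the shares of 2 libraries lie at 100% or 0% and those of the other 2 far from them, and the pair differs from group to group.

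A single library stood apart at several of the loci with the largest genotype difference in means. At MSTRG.1205, an uncharacterized locus of 7 models, the longest held 93.6% in sibling 3, 94.3% in sibling 4 and 93.1% in knockout 4 but 0.382% in knockout 3. In knockout 3 the other 6 models took its place, led by one at 35.8%, and the locus sum of 3402 lay next to the 3483 to 3755 of the others. The unmatched locus MSTRG.38536 had its longer model at 0% in sibling 3 and at 82.6%, 85.0% and 86.3% in sibling 4, knockout 3 and knockout 4.

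FLVCR2, MSTRG.35284, a membrane transporter, had its longer model at 100% in sibling 3, 0% in knockout 3, and 42.2% and 41.6% in sibling 4 and knockout 4. The genotype difference was therefore -100 points between the libraries numbered 3 and -0.636 points between those numbered 4. The uncharacterized locus MSTRG.37049, with 59 to 113 counts in all, had its longer model at 100% in sibling 4 and at 24.3 to 37.3% in the others. None of MSTRG.1205, MSTRG.38536, FLVCR2 and MSTRG.37049 passed a usage test by genotype in edgeR, limma or DESeq2. TBC1D1, MSTRG.34779, and sorbin and SH3 domain-containing protein 2, MSTRG.33145, chosen after their values were seen, add the same form: the longer model of TBC1D1 held 10.6% in sibling 3 and 81.4 to 83.6% elsewhere, and 1 model of the sorbin locus held 61.7% in knockout 3 and 8.42 to 14.0% elsewhere.

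The locus with the most models, MSTRG.37953, matched polyubiquitin, whose coding sequence is a head-to-tail run of ubiquitin units. Its 22 models summed to 5843, 10212, 7795 and 11163 counts in siblings 3 and 4 and knockouts 3 and 4, and the 2 libraries numbered 4 were the higher ones. The leading model was the same in 3 libraries, with 15.5% in sibling 4, 14.6% in knockout 3 and 16.4% in knockout 4, and held 12.4% in sibling 3, where another led at 16.1%. Single models came and went: 1 had 2 counts in sibling 3 and 410, 770 and 737 in sibling 4, knockout 3 and knockout 4. Repeated units make such models hard to tell apart, so their counts are uncertain.

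**Figure D5:**
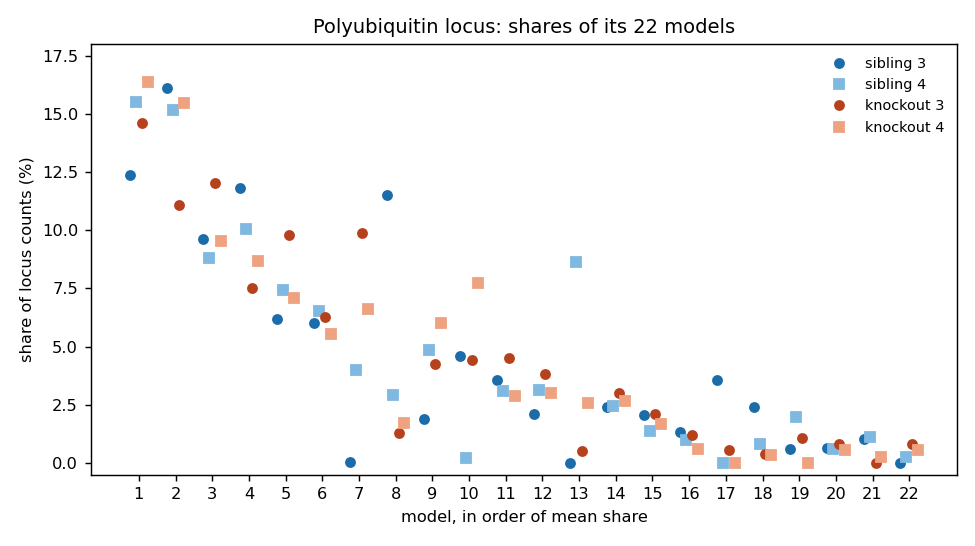
Shares of the 22 polyubiquitin models in the locus counts, in percent, in order of mean share, with siblings in blue, knockouts in orange, replicate 3 as circles and replicate 4 as squares. No model exceeds 16.4% in any library, and for most models the 4 points lie within a few points of each other.

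Of the other loci with many models, the 2 with 9 each had the same leading model in all 4 libraries. At MSTRG.37950, 8 models match IgGFc-binding protein, a component of mucus, and the leading one, at 70.1 to 83.0% in every library, an IgGFc-binding protein-like entry of another fish, while the sum was 921 and 1671 counts in the libraries numbered 3 and 4260 and 3685 in those numbered 4. The protocadherin gamma locus MSTRG.31767, a cluster of cell adhesion genes in which alternative first exons are joined to a shared end, had 9 models led by 1 at 25.1 to 33.6%. One of its models had 0 counts in knockout 3 and 89 to 144 in the other libraries. At MSTRG.13687, with 8 models of an uncharacterized fibronectin-domain protein, 1 model had 0 counts in both libraries numbered 3 and 33.4% and 12.1% in sibling 4 and knockout 4. Its leading model was not the same in all libraries, and the largest difference in share between 2 libraries was 33.4 points.

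The loci with the highest sums differed little by genotype. MSTRG.36256, an uncharacterized locus whose annotation carries words of a retroelement, had 1047 CPM in sibling 3 and 1075 CPM in knockout 3 but 170 CPM in sibling 4 and 173 CPM in knockout 4. Its shares moved far less than its level, with the leading model at 80.7%, 79.4%, 83.1% and 76.2% in siblings 3 and 4 and knockouts 3 and 4. The slow myosin heavy chain locus, MSTRG.36425, a motor protein of slow muscle, had 4 models with different myosin matches, 2 of them at nearly equal shares. Of these the longer, matched to slow myosin heavy chain 1, had 53.0% and 51.4% in siblings 3 and 4 and 49.1% and 47.6% in knockouts 3 and 4, lower in both knockouts by a mean of 3.85 points (adjusted p = 0.999, edgeR usage test). Nebulin, MSTRG.39823, the ruler protein of the thin filament, was led by 1 of 4 models at 92.4 to 94.0%. AHNAK, MSTRG.34123, a very large scaffold protein, had a leading model at 52.7 to 60.3%.

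By the words of their annotation, some kinds of gene were counted more often among multi-model loci. The words were chosen and grouped after values had been seen. Several are names that these loci carry, such as nesprin, obscurin, supervillin and cyclin-L. A higher frequency among the multi-model loci is therefore in part built in, and the percentages below are a description only. A locus was counted where any of its models carried the words, so loci with more models had more chances to be counted. Zinc finger words were found at 31 of the 204 loci (15.2%), against 7.66% of the assembled loci with 1 model and 5.38% of the Ensembl genes. Words of RNA processing were at 14 loci (6.86%, against 1.27% and 1.75%), those of cytoskeleton and muscle at 14 (6.86%, against 1.82% and 2.09%), and those of retroelements or transposons at 7 (3.43%, against 1.87% and 0.278%). Uncharacterized or unmatched proteins were at 31 loci (15.2%, against 11.1% and 6.83%) and NACHT or NLR words at 4 (1.96%, against 0.551% and 0.92%), while ubiquitin words were at 5 loci and not more frequent (2.45%, against 2.64% and 2.37%). Over all 204 loci 12 were called by genotype in at least 1 of the tools (5.88%), so the counts of called loci in such small groups set none of them apart. None of the 31 zinc finger loci was called by genotype by edgeR, limma or DESeq2. The 14 loci with words of cytoskeleton and muscle had no call either. Neuron navigator 2, described above as cytoskeletal and called by DESeq2, did not carry the words of that group. The largest difference between any 2 libraries had a median of 18.5 points at the zinc finger loci and 9.29 points at those 14. Among the 14 RNA processing loci 1 was called, YTHDC1, and 4 moved by 50 points or more between some 2 libraries, as did 51 of all 204 loci. The median of the largest difference was 16.7 points at these 14 loci, against 21.6 points over all loci. Among the 7 retroelement loci 1 was called, MSTRG.32345, which was also 1 of 3 called among the 31 uncharacterized loci. Of the 5 ubiquitin loci 1 was called, pellino 1b, and of the 4 NACHT or NLR loci none.

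The genes whose products make and remove alternative transcripts were looked up in the same table. Of 84 splicing regulators 80 were measured and none passed in edgeR or DESeq2, where 0.0% and 0.0954% of all rows did. There were 58 higher and 22 lower in knockouts (72.5% higher, against 47.9% of all rows), with a median log2 fold change of 0.04, against -0.01 over all rows. The list includes elavl3 and elavl4, which were also among the 5 neuron markers that summed higher in the knockout within each number. The part of the neuron markers in this count was not tested. All 46 core spliceosome genes were measured with none called (median 0.03, 58.7% higher). So were 19 of 23 genes of 3' end processing (median 0.01, 57.9% higher). Of 20 genes of nonsense-mediated decay, which removes transcripts with early stops, 19 were measured with none called (median -0.08, 5 higher and 14 lower, or 26.3% higher). The spliceosome gene prpf38a had 2.65, 2.44, 0.54 and 1.77 CPM in siblings 3 and 4 and knockouts 3 and 4, the decay gene upf3a 4.05, 3.27, 8.06 and 3.85 CPM, and neither passed in edgeR (adjusted p = 1). Knockout 3 was the lowest library for prpf38a and the highest for upf3a. The other 6 genes chosen by p, ptbp3, celf4, snrpd3, papola, clp1 and smg5, had log2 fold changes from -0.36 to 0.43 and did not pass either. Because edgeR also left cpa5 uncalled, genes of these lists that did not pass are not shown to be unchanged.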

How the data were processed

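Per the submitters' processing notes HISAT2 2.2.1, DESeq2 1.26.0 and the build GRCz11 were used. For assembly, read counting, annotation and strandedness, the tool and settings do not appear in the labels or headers. The deposited table gives, per the file headers, raw counts and FPKM values for each library, and the authors' log2 fold changes, p-values and adjusted p-values. A deposited mean FPKM score and the deposited regulated column were not used in any test. From the counts, shares, locus sums and CPM were computed, the CPM with edgeR's TMM factors. edgeR 4.0.16 (TMM, filterByExpr, which removed no row, and quasi-likelihood fits in R 4.3.3) was run on all 19924 rows, on 19629 rows with multi-model loci summed, and through diffSpliceDGE for usage, with Simes p-values per locus. limma 3.58.1 and DESeq2 1.42.0 were alternatives. For usage, limma was run through diffSplice. DESeq2 tested an interaction of genotype with the counts of a model against those of the rest of its locus, with Simes p-values per locus. p-values were adjusted by Benjamini-Hochberg over all rows, or over all 499 models or 204 loci for usage. The SE of an edgeR log2 fold change is its size divided by the square root of F. Scripts were tested on simulated data. There the models of a locus were set to vary far less around their locus than single rows vary. The simulation therefore gives no rate of false usage calls for these data. With 2 libraries a group an exact permutation test cannot go below p = 0.333, so none is given for single shares. Shares were compared as non-overlapping only at loci with 50 counts in every library. An upper limit for 0 counts takes 3 counts of the locus.

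The members and lists were chosen with earlier results of these data known. Named loci are those called for usage or level by edgeR or DESeq2 (up to 25), the 12 with the largest non-overlapping genotype difference in share, the 6 with the largest difference by replicate number, and the 5 with the most models, the highest sums and the smallest p of the sum. One locus named by this rule is not reported here. Of each gene list, up to 2 genes with the smallest p were eligible. No sequence or coordinate of a model is shown.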

Additional observations from a re-analysis of the deposited data

How the results depend on the processing

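The usage calls between genotypes changed with the tool, with the replicate block and with each library left out. Against 5 loci and 8 models in edgeR, limma called 8 and 15, DESeq2 12 and 22, and limma with the replicate block, chosen after the data had been seen, 8 and 15. With the replicate block edgeR called 0 loci and 0 models (smallest locus adjusted p = 0.133, 1 residual degree of freedom), while 3 models passed in its level test with the block, against 0 without. The replicate numbers come from titles that name no shared batch, so they were not taken to pair the libraries. The differences between replicates 4 and 3 in siblings and in knockouts correlated across all rows at r = 0.71 and across model shares at r = 0.06, and rows are not independent replicates. Leaving out each library gave 0 loci and 0 to 1 models. DESeq2 called 15 models in the level test. Between replicate numbers, against 0 loci in edgeR, limma called 12, edgeR without a genotype term 12 and limma without it 16. Loci with a non-overlapping share difference of 20 points or more between genotypes numbered 23, and 39 to 44 with a library left out, where fewer libraries must not overlap. Other scalings, a minimum of 50 counts, robust fitting, dropping models under 5% of a locus and shares from FPKM kept these counts within 1.5 times. Of the single share differences, shares from FPKM moved 3: MSTRG.32345.3 to -44.8 points from -33.0, and both minor models of MSTRG.33611. No result reversed. The depth limits loci with few counts, where an interval of a share reached 16.9 points to either side among the named loci.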
